A study of Mus musculus with 2 samples.

Results

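Astrocytes in which no Gfap RNA molecule was counted were described in dissociated hippocampi of 60TM mice and wild-type (WT) mice. The 60TM mice carry a GFAP-hGFAP transgene on a C57BL6/J background and serve as a model of Alexander disease, and the WT mice were C57BL6/J. All mice were 7 weeks old, and hippocampi were dissociated with papain before droplet capture with 3′ single-cell chemistry (10x Chromium v3). The transgene is named for the GFAP promoter, which is active in astrocytes and in neural stem cells of the same lineage. Each genotype was sequenced as 1 library of cells from 3 mice, and cells were not resolved by animal. There was therefore no replicate of either genotype: no test was made between genotypes, all intervals are 95% intervals that cover counting error only, and genotype and library cannot be told apart. The 60TM library was sequenced to an average of 54044 reads per cell and the WT library to 63967 reads per cell.

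The cells were chosen on their counts of unique molecular identifiers (UMIs, each marking 1 captured RNA molecule). A barcode passed with 500 or more genes and a mitochondrial share of up to 15%. It needed at least 1 UMI of at least 5 of 7 astrocyte genes, which were Aldoc, Slc1a3, Ntsr2, Mlc1, Slc4a4, Gpr37l1 and Cldn10. It could hold at most 1 UMI of P2ry12 (a microglial gene) and of Mog (an oligodendrocyte gene), no UMI of Frzb or Lcn2, and fewer than 2 of Tnc, Hhatl and Col11a2. Of the barcodes left, those with 0 Gfap UMIs were kept. This gave 728 cells among 15594 barcodes, 306 of them from the 8733 barcodes of the 60TM library and 422 from the 6861 barcodes of the WT library. Astrocytes that met every other criterion but held 1 or more Gfap UMIs numbered 1412 in the 60TM library and 567 in the WT library. Lcn2 marks a strongly reactive astrocyte state, and its criterion acted on 1 genotype alone: it left 1784 of 2274 60TM barcodes and 1141 of 1141 WT barcodes. All values of the genes named in these criteria are descriptions of the choice. Of the 20 barcode sequences present in both libraries, 0 were among these cells.

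Gfap encodes glial fibrillary acidic protein, the main intermediate filament of mature astrocytes, and dominant mutations of the human gene cause Alexander disease, in which the protein aggregates into Rosenthal fibres. Its level differs widely between astrocytes. Protoplasmic astrocytes of grey matter hold little of it in healthy brain, while fibrous astrocytes of white matter, astrocytes under the pial surface and reactive astrocytes hold much. Astrocytes of either kind clear glutamate, buffer potassium, couple through gap junctions and supply neurons with cholesterol in lipoproteins.

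The astrocyte label was checked on Slc6a11, which encodes the GABA transporter GAT-3 and had no part in the choice. After each cell was thinned at random to 2000 UMIs, it was detected in 63.6% of 261 60TM cells (57.4 to 69.4%) and 73.8% of 362 WT cells without Gfap (68.9 to 78.2%). In microglia-like barcodes at the same depth, which should lack it, the shares were 0.300% in 60TM and 0.483% in WT. Aldoc (aldolase C) and Ntsr2, a neurotensin receptor, were among the 7 genes of the choice: Aldoc was detected in 91.2% of the 60TM cells and 93.1% of the WT cells after thinning, and Ntsr2 in 81.6% and 87.0%. Unthinned, Slc6a11 was detected in 76.8% and 84.1% of the 60TM and WT cells, at median depths of 5751 and 5815 UMIs per cell.

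Depth was close between the genotypes. The cells summed to 1806970 UMIs in the 60TM library and 2577591 UMIs in the WT library, with medians of 2316.5 and 2337 genes per cell and 3.94% and 4.07% mitochondrial UMIs. Depth differed more between cells without and with Gfap: cells with Gfap had medians of 7156.5 UMIs in the 60TM library and 6946 UMIs in the WT library, both above those of cells without it. A zero is likelier in a shallow cell, so the share of cells without Gfap was taken by depth.

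Among all astrocytes chosen this way, 306 of 1718 60TM cells (17.8%, exact interval 16.03 to 19.70%) and 422 of 989 WT cells (42.7%, 39.6 to 45.8%) had no Gfap UMI, a ratio of 0.417 (0.369 to 0.473). In cells with 500 to 2000 UMIs the shares were 39.1% in 60TM and 64.5% in WT. They were 25.7% and 43.6% at 2000 to 4000 UMIs, 19.0% and 46.7% at 4000 to 6000, 16.5% and 45.1% at 6000 to 8000, 13.8% and 34.2% at 8000 to 12000, and 9.52% and 31.7% at 12000 to 20000. From 20000 UMIs upwards, 0 of 41 60TM cells (which allows a share of up to 8.60%) and 4 of 40 WT cells had none. The 60TM share was the lower one in each of the 7 depth bins, and within each genotype the shallowest bin had the highest share. Thinned to 2000 UMIs, 37.9% of 1603 60TM cells and 68.5% of 896 WT cells had no Gfap UMI, a ratio of 0.553. Of the cells without Gfap after thinning, 57.0% in 60TM and 41.0% in WT had held a Gfap UMI at full depth. At that depth a zero did not separate cells without Gfap RNA from cells with little of it. Exactly 1 Gfap UMI, the count next to the limit, was found in 220 60TM cells (12.8%) and 207 WT cells (20.9%). Free RNA adds UMIs to cells that do not make them: 6.22% of 60TM and 1.80% of WT microglia-like barcodes had a Gfap UMI, or 1.84% and 0.677% at 2000 UMIs. With Lcn2-positive barcodes admitted, the 60TM share was 14.6% (319 of 2191) against the same 42.7% in WT. Whether reads of the human transgene were counted as Gfap was not given in the sources used here.

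**Figure D1:**
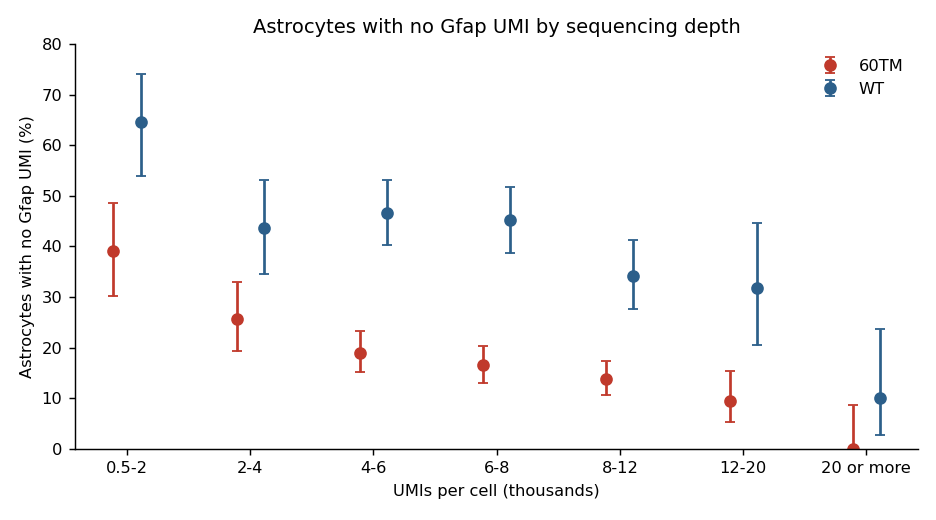
Share of astrocytes with no Gfap UMI (%, y axis) by total UMIs per cell (x axis), 60TM in red and WT in blue, 1 library each; points are shares and bars exact 95% binomial intervals. The 60TM share lies below the WT share in each bin, from 39.1% against 64.5% in the shallowest to 9.52% against 31.7% at 12000 to 20000 UMIs.

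RNA of other cell types was present in part of these cells. At least 3 markers and at least 10 UMIs of another class were found in 58 of the 306 60TM cells (19.0%) and 62 of the 422 WT cells (14.7%). In 60TM and WT these cells carried markers of oligodendrocyte precursors (18 and 7 cells), oligodendrocytes (17 and 27), neurons (9 and 17), pericytes (8 and 9), endothelial cells (7 and 10), microglia (5 and 1), ependymal cells (2 and 9), stem or dividing cells (4 and 4), immature neurons (2 and 5) and macrophages (2 and 0). The doublet caller marked 6 and 12 of the cells. Without the 58 and 62 cells, 248 60TM and 360 WT cells were left, and their summed precursor markers were 18.7 and 7.30 CPM (counts per 1000000 UMIs), against 501 and 168 CPM with them. Cells were left out on these same markers, so the lower sums follow from the choice. All 6 precursor, all 8 neuronal and all 6 endothelial markers were seen in both libraries. The part of these cells in each result was measured by leaving them out, a choice made after the data were seen; the 248 and 360 cells are called the filtered cells below. They still held 589 CPM of the 8 oligodendrocyte markers in 60TM and 597 CPM in WT.

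UMIs were summed over the cells of each library and scaled to CPM, and 60TM was set over WT. A 60TM level 2 times that of WT or more was reached by 58 of 6388 genes that had 100 UMIs (0.908% of genes tested), and a WT level 2 times that of 60TM or more by 56 (0.877%). Among filtered cells these were 6 genes (0.126%) and 21 genes (0.442%) of 4749. Many of the extreme ratios over all cells came from few cells. The class II antigen presentation gene Cd74 had 435 UMIs in 3 60TM cells, 99.5% of them in 1 cell, and 0 UMIs in WT cells; its partners H2-Aa, H2-Eb1 and H2-Ab1 came from that library in the same way, with 171, 155 and 173 UMIs. The microglial complement genes C1qa, C1qb and C1qc were at 115, 85.2 and 64.2 CPM in 60TM cells and 10.9, 10.5 and 4.66 CPM in WT cells, and 1 60TM cell held 40.4% of the C1qa UMIs. Tyrobp and Ctss, also microglial, were 7.77-fold and 7.72-fold higher in 60TM. In the other direction, the haemoglobin gene Hbb-bs had 1 UMI in 60TM cells and 2182 UMIs in WT cells, 99.5% of them in 1 cell, and Hba-a1 and Hba-a2 had 0 UMIs in 60TM cells and 513 and 378 in WT cells. Genes of motile cilia, which ependymal cells carry, were at most 9.41 CPM in 60TM cells: Tmem212, Fam183b, Dynlrb2, Ccdc153, Cfap126 and Meig1 had 149, 69.4, 78.4, 146, 38.02 and 53.5 CPM in WT cells, detected in 11 to 16 WT cells each. This direction turned in the filtered cells for Ccdc153 (60TM over WT 3.00) and Dynlrb2 (2.25), and at 2000 to 8000 UMIs per cell for all 6, with ratios of 1.49 for Meig1 to 11.2 for Ccdc153. These turned ratios rest on few 60TM UMIs. Ccdc153, Dynlrb2 and Tmem212 are also among the ependymal markers that the filter used, so their filtered ratios describe the choice. Over all 60TM cells Fam183b had 2 UMIs, Meig1 6 and Ccdc153 17, with 70.6% of the Ccdc153 UMIs in 1 cell. The lower list also held 1110017D15Rik, Gm19935 and Sncg, a synuclein (Sncg at 2.21 CPM in 60TM and 41.1 CPM in WT).

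Genes spread over many of the filtered cells gave a different list. Mxra7, a matrix-remodelling associated gene, was at 128 CPM in 60TM and 18.3 CPM in WT filtered cells, a ratio of 7.02 (4.85 to 10.4), and was found in 101 60TM and 26 WT cells. Etnppl, which encodes the astrocytic enzyme that breaks down phosphoethanolamine, was at 163 CPM in 60TM and 63.6 CPM in WT, a ratio of 2.57 (2.04 to 3.24). Trib1, a pseudokinase that directs proteins to degradation, was at 78.1 and 37.0 CPM in 60TM and WT (2.11, 1.54 to 2.90), Cluh, which binds mRNAs of mitochondrial proteins, at 54.7 and 25.6 CPM (2.14, 1.46 to 3.15), and Usp2, a deubiquitinase, at 208 and 121 CPM (1.72, 1.44 to 2.06). Ttr, the transthyretin of choroid plexus, had the highest ratio, 458 CPM in 60TM against 29.2 CPM in WT. Ttr was also 1575 CPM in 60TM and 33.0 CPM in WT microglia-like barcodes, so the ratio in a cell type that should lack Ttr, 47.7, was above that in these astrocytes, 15.7. Of the other 4 choroid plexus markers over all cells, Folr1 had 7 UMIs in 60TM and 42 in WT, Kl 2 and 0, Clic6 0 and 1, and Kcne2 0 in both.

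Lower in 60TM filtered cells were S100a10, a partner of annexin A2, at 24.2 CPM against 91.8 CPM in WT (0.264, 0.174 to 0.388), and Fabp7, the brain fatty acid binding protein, at 241 CPM against 614 CPM in WT (0.392, 0.344 to 0.444). Fabp7 was detected in 110 of 248 60TM and 253 of 360 WT cells, and 1 cell held at most 3.25% of its UMIs in either library. Ehd1, a regulator of endosome recycling, was at 19.5 CPM in 60TM and 61.0 CPM in WT (0.320, 0.199 to 0.496), and was lower in microglia-like barcodes as well (0.381). Lyrm4, which acts in iron-sulfur cluster assembly, was at 22.7 CPM in 60TM and 58.4 CPM in WT, Lmcd1 at 25.8 and 62.6 CPM, and Pcyt2, an enzyme of phosphatidylethanolamine synthesis, at 47.7 and 104 CPM. In microglia-like barcodes Pcyt2 was lower as well (0.595, 0.505 to 0.701), while the intervals of Lyrm4 and Lmcd1 included 1. Ptgds and Apod rested on 1 WT cell that held 72.6% and 76.0% of the WT UMIs. The remaining 4 of the 12 lowest were genes of cholesterol synthesis.

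Cholesterol is made from acetyl-CoA through mevalonate, isoprenoids, squalene and a series of sterols, and its genes are switched on together by the sterol-sensing factor SREBP-2. The 19 enzymes of the pathway were the list with the lowest median of 28 lists. At 1.5-fold or more, 12 of 19 were lower in 60TM and 0 higher, where 9.63% of 11455 genes with at least 20 UMIs were lower and 8.1% higher, and the median log2 ratio was -0.66, against 0.00 over all genes tested. In the filtered cells 11 of 19 were lower and 0 higher, with a median of -0.57, beside 8.59% and 5.93% of 9787 genes and a median of -0.01. Under 15 planned and 3 added settings the count lower stayed between 9 and 14.

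Along the pathway in all cells, Hmgcs1 (HMG-CoA synthase) was at 207 CPM in 60TM and 329 CPM in WT, a ratio of 0.628 (0.555 to 0.711). Idi1 (isopentenyl diphosphate isomerase) was at 137 CPM in 60TM and 275 CPM in WT, a ratio of 0.500 (0.431 to 0.578). Fdps, which makes farnesyl diphosphate, was at 104 and 199 CPM (0.524, 0.441 to 0.620). Msmo1, a methylsterol monooxygenase, was at 634 CPM in 60TM and 1195 CPM in WT (0.531, 0.496 to 0.568), and was detected in 234 of 306 60TM cells and 367 of 422 WT cells. Pmvk (phosphomevalonate kinase) was at 57.6 and 110 CPM (0.524, 0.415 to 0.659). The exception was Ebp, a sterol isomerase, at 47.6 CPM in 60TM and 45.8 CPM in WT (1.04, 0.778 to 1.38). Filtered ratios of Idi1, Fdps, Msmo1 and Pmvk were 0.498, 0.516, 0.577 and 0.480. The summed list had a median over cells at 2000 UMIs or more of 21.4 UMIs per 10000 in 60TM and 39.6 in WT, with percentiles 10 to 90 of 7.04 to 44.2 in 60TM and 14.0 to 67.1 in WT, so the genotypes overlapped widely cell by cell. In microglia-like barcodes, 60TM over WT was 0.833 for Idi1, 0.929 for Fdps, 0.727 for Msmo1 and 0.826 for Pmvk.

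The promoters of 3 of these enzymes are shown because most genes of the list were lower and share a known control. Each runs from 250 bases before the start of the gene to 50 after it, read from RefSeq tables of GRCm38.p6, and capitals mark TCACNCCAC, a sterol regulatory element, and the CCAAT box, the site of NF-Y (ATTGG on the other strand); the matches did not overlap. The Hmgcs1 promoter is chr13:119690101-119690400 on the plus strand, that of Idi1 chr13:8885356-8885655 on the plus strand, and that of Msmo1 chr8:64733529-64733828 on the minus strand.
Hmgcs1: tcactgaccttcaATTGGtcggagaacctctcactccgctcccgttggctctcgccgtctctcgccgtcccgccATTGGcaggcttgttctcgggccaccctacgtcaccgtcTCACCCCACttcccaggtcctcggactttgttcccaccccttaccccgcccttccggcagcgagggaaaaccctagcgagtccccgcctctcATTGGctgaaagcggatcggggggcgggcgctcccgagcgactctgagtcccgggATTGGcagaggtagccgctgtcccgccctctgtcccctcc
Idi1: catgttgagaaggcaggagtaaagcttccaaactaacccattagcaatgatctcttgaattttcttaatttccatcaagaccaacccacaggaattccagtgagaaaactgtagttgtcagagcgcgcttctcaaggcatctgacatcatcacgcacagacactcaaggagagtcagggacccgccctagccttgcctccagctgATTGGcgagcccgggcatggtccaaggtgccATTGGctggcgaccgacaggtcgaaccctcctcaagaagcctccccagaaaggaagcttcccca
Msmo1: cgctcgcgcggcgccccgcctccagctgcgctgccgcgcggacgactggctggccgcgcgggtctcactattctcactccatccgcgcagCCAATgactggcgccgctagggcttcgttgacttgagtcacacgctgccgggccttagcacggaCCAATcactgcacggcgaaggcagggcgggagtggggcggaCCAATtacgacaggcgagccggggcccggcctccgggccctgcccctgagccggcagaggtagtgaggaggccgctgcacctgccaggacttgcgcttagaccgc
Of the 19 genes, 14 had promoters in the table, 17 in all. TCACNCCAC, searched on both strands, was in 1 of these genes (Hmgcs1), beside 1.24% of 32851 promoters. The CCAAT box was in 13 of the 14 genes, or 13 of 17 promoters, beside 37.4% of all promoters.

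Fewer genes around the pathway passed 1.5-fold. Of 10 sterol regulation genes 0 passed in either direction over all cells, and in the filtered cells 1 of 9 was lower (Stard4, a sterol carrier, 14.8 CPM in 60TM and 27.1 CPM in WT) and 0 higher. Over all cells, Insig1, which holds SREBP in the endoplasmic reticulum and is itself sterol-responsive, was at 148 CPM in 60TM and 220 CPM in WT (0.674, 0.581 to 0.781), while the cholesterol exporter Abca1, a target of sterol-activated LXR, was at 177 and 137 CPM (1.29, 1.11 to 1.51). Of 12 fatty acid synthesis genes 0 passed over all cells, with a median of -0.27, and fatty acid synthase (Fasn) was lowest at 66.4 CPM in 60TM and 98.9 CPM in WT. After filtering, 3 of 12 were lower, beside 8.59% of all genes, and 0 higher: Fasn (0.627, 0.485 to 0.806), the fatty acid elongase Elovl6 (0.657, 0.472 to 0.904) and the desaturase Scd1 (0.664, 0.484 to 0.901). In lipid transport, Fabp5 was at 878 CPM in 60TM and 1333 CPM in WT (0.659, 0.620 to 0.699) beside Fabp7.

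**Figure D2:**
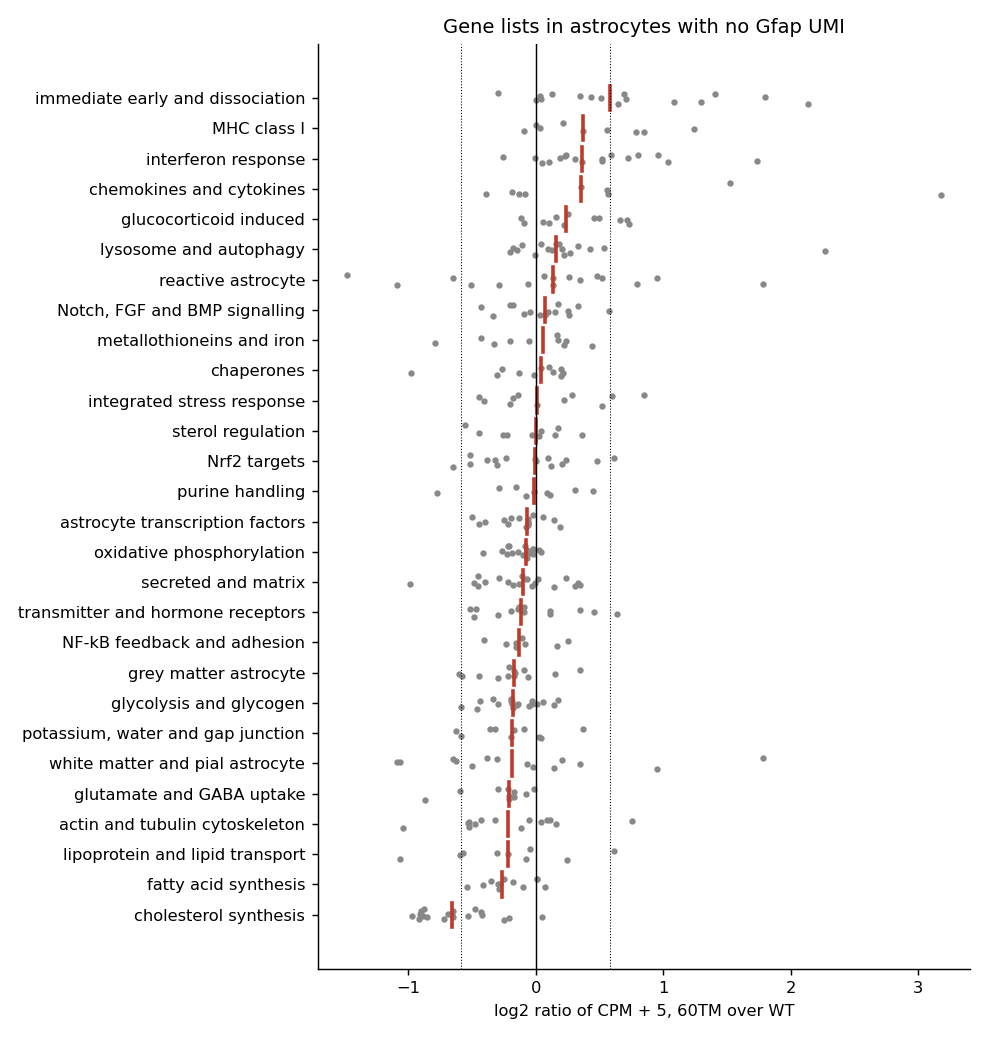
log2 ratio of CPM + 5, 60TM over WT (x axis), for the genes with at least 20 UMIs of 28 lists (rows) in cells without Gfap; grey points are genes, red bars list medians, the solid line the median of all genes and the dotted lines 1.5-fold. Cholesterol synthesis has the lowest median (-0.66) and immediate early genes the highest (0.58).

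Immediate early genes, which respond within minutes to stimulation and also to tissue dissociation, had the highest list median: 9 of 16 were higher in 60TM and 0 lower, beside 8.1% and 9.63% of all genes, with a median of 0.58. After filtering, 3 of 12 were on the higher side and 0 on the lower, beside 5.93% and 8.59%, and the median was 0.28. Fos was at 127 CPM in 60TM and 33.0 CPM in WT cells, and at 70.3 and 32.3 CPM in the filtered cells (2.17, 1.56 to 3.06), where 1 WT cell held 53.2% of the WT UMIs. Junb was at 74.7 and 13.2 CPM in 60TM and WT, and its filtered ratio was 3.47 (1.98 to 6.29). Both genes were higher in 60TM microglia-like barcodes as well. Fos was at 1905 CPM in 60TM and 1235 CPM in WT there (1.54, 1.51 to 1.57), and Junb at 2014 and 1465 CPM (1.38, 1.35 to 1.40). Egr1 was at 46.9 CPM in 60TM and 37.5 CPM in WT filtered cells, a ratio of 1.25 with an interval of 0.871 to 1.78.

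Interferon-induced genes were higher in part: 8 of 17 were higher in 60TM and 0 lower, and 4 of 6 and 0 in the filtered cells. For this and the next 2 lists, the shares over all genes were 8.1% higher and 9.63% lower in all cells, and 5.93% and 8.59% in the filtered cells. Ifit3, an interferon-induced antiviral gene, was at 34.9 CPM in 60TM and 6.98 CPM in WT (4.99, 2.92 to 8.96), with a filtered ratio of 4.29. Ifitm3, which blocks viral entry, was at 96.3 and 116 CPM over all cells but at 32.8 CPM in 60TM and 11.0 CPM in WT filtered cells (3.00, 1.74 to 5.33). In microglia-like barcodes Ifitm3 was higher in 60TM as well, at 218 CPM against 57.5 CPM in WT (3.78, 3.51 to 4.09). Of the chemokine and cytokine list 4 of 9 were higher and 0 lower (filtered 2 of 6 and 0). Cxcl10, an interferon-induced chemokine, had 79 UMIs in 15 60TM cells, 45.6% of them in 1 cell, and 1 UMI in WT cells, and Ccl2, a monocyte chemoattractant, had 19 UMIs in 60TM and 1 in WT. MHC class I genes were higher in 4 of 9 and lower in 0; H2-D1 was at 106 CPM in 60TM and 56.6 CPM in WT (1.87, 1.497 to 2.331). In the filtered cells 0 of 5 of that list passed in either direction, and H2-D1 had a ratio of 1.37 (0.925 to 2.02). Microglial markers moved with this list: their 10 genes summed to 440 CPM in 60TM and 95.8 CPM in WT over all cells, and 136 and 99.1 CPM in the filtered cells. The filter used these markers, so the lower 60TM sum follows in part from the choice.

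The reactive astrocyte list was split over all cells, with 6 of 16 genes higher and 4 lower in 60TM (8.1% and 9.63% of all genes) and a median of 0.14, and tilted higher in the filtered cells, with 6 of 8 higher, 1 lower and a median of 0.66, beside 5.93% higher and 8.59% lower of all genes. Complement C4b, a common marker of astrocyte reactivity, was at 57.6 CPM in 60TM and 13.2 CPM in WT (4.36, 2.94 to 6.63), with a filtered ratio of 3.31 (2.10 to 5.32). In microglia-like barcodes C4b was higher as well, at 38.9 CPM in 60TM and 7.40 CPM in WT (5.27, 4.28 to 6.54). Over all cells without Gfap, Fbln5, an elastic fibre protein, was at 12.2 CPM in 60TM and 3.88 CPM in WT (3.14, 1.43 to 7.42). On the lower side over all cells, the genes of this list farthest from 1 were Lgals3 and S100a6. Vim, the intermediate filament partner of Gfap, went against its all-cell ratio when filtered: it was at 109 CPM in 60TM and 174 CPM in WT over all cells, and at 72.7 CPM in 60TM and 41.2 CPM in WT filtered cells (1.76, 1.29 to 2.41). The ependymal markers, whose cells also hold Vim, summed to 113 CPM in 60TM and 701 CPM in WT over all cells, and 84.4 and 98.0 CPM in the filtered cells. These markers were used by the filter, so their lower filtered sums follow in part from the choice.

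Few of the working genes of astrocytes passed 1.5-fold. Of 10 uptake genes 2 were lower and 0 higher in 60TM, beside 9.63% and 8.1% of all genes, but in the filtered cells 0 were lower and 1 higher (Slc6a6, the taurine transporter, with 15 UMIs in 60TM and 12 in WT). Slc6a6 was on the lower side over all cells, so its direction turned in the filtered cells. Over all cells, the glutamate transporter Slc1a2 was at 6567 CPM in 60TM and 7410 CPM in WT (0.886, 0.866 to 0.907), glutamine synthetase (Glul) at 2503 and 2534 CPM (0.988, 0.951 to 1.03), and the mitochondrial glutamate carrier Slc25a18 at 276 and 421 CPM (0.657, 0.589 to 0.731). Of 10 potassium, water and gap junction genes 2 were lower and 0 higher, beside the same shares, and in the filtered cells 0 passed in either direction. The gap junction subunit Gja1 was at 1661 CPM in 60TM and 2493 CPM in WT (0.666, 0.638 to 0.696) and the water channel Aqp4 at 531 and 822 CPM (0.647, 0.599 to 0.698), with a filtered ratio of 0.710 for Aqp4 (0.654 to 0.770), while the potassium channel Kcnj10 was at 312 and 240 CPM (1.30, 1.16 to 1.46). Mfge8, a secreted bridge protein for phagocytosis, was at 1435 CPM in 60TM and 2147 CPM in WT, and the cystine transporter Slc7a11 at 290 and 416 CPM. Entpd2, an enzyme that splits extracellular ATP, was at 84.7 and 148 CPM (0.571, 0.471 to 0.691). The AMPA receptor subunit Gria2 was at 1473 CPM in 60TM and 1160 CPM in WT (1.27, 1.21 to 1.34). In the lists of astrocyte transcription factors (16 genes) and oxidative phosphorylation (18 genes), 0 passed 1.5-fold in either direction; of 8 NF-kB feedback genes 0 passed as well, and 1 of 7 in the filtered cells.

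Set beside astrocytes with Gfap in the same libraries, the cells without Gfap had smaller 60TM over WT ratios for Fos, Junb, Egr1 and the ferritin genes. The filtered cells were used, with 1194 60TM and 468 WT cells for those with Gfap, and the genes given were chosen after their values were seen; the ratio of the 2 ratios carries a counting interval. Fos had a ratio of 2.17 without Gfap and 11.2 with it (ratio of ratios 0.194, 0.131 to 0.289), and Junb 3.47 and 13.2 (0.262, 0.141 to 0.488). For Fos, 1 cell held 53.2% of the WT UMIs without Gfap, which its counting intervals do not cover. Egr1 had ratios of 1.25 and 8.20 (0.152, 0.0981 to 0.236). Nfkbia, the feedback inhibitor of NF-kB, had ratios of 1.70 and 3.44 (0.494, 0.385 to 0.635). The iron store genes Fth1 and Ftl1, which encode ferritin, were at 1.33 and 1.32 without Gfap, and 2.44 and 2.01 with it; for Fth1 the ratio of ratios was 0.543 (0.515 to 0.574). The metallothionein Mt2 was on the lower side without Gfap (0.832, 0.785 to 0.882) and on the higher side with it (1.13, 1.09 to 1.16). Of 9 genes of the metallothionein and iron list, 0 were higher without Gfap and 2 with it, and 0 lower in either. Over all genes tested, 5.93% were higher and 8.59% lower without Gfap, and 7.07% and 8.74% with it.

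By list, NF-kB feedback genes had 1 of 7 higher without Gfap and 8 of 12 with it, and interferon genes 4 of 6 and 18 of 20, beside 5.93% of all genes without Gfap and 7.07% with it. Fewer genes of these lists reached 20 UMIs in the smaller group without Gfap, so these counts cover different sets of genes. Cholesterol synthesis genes had 11 of 19 lower without Gfap and 16 of 19 with it (medians -0.57 and -0.75, beside -0.01 and -0.06 over all genes); over all cells, 12 of 19 were lower without Gfap and 7 of 19 with it, and 0 higher with it, beside 18.9% and 8.41% of 14054 genes. Among 12165 genes in the cells with Gfap, 7.07% were higher and 8.74% lower. Idi1 had ratios of 0.498 without Gfap and 0.479 with it (ratio of ratios 1.04, 0.867 to 1.25), and Etnppl 2.57 and 2.74 (0.937, 0.704 to 1.25). Mxra7 had ratios of 7.02 and 9.17 (0.765, 0.489 to 1.20) and C4b 3.31 and 3.79. Cluh had ratios of 2.14 without Gfap and 0.955 (0.762 to 1.20) with it, a ratio of ratios of 2.24 (1.46 to 3.44). Hes5, a Notch target, had ratios of 1.14 without and 0.600 with Gfap (1.89, 1.72 to 2.08), and Agt, angiotensinogen, 0.751 and 0.423 (1.78, 1.56 to 2.02).

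**Figure D3:**
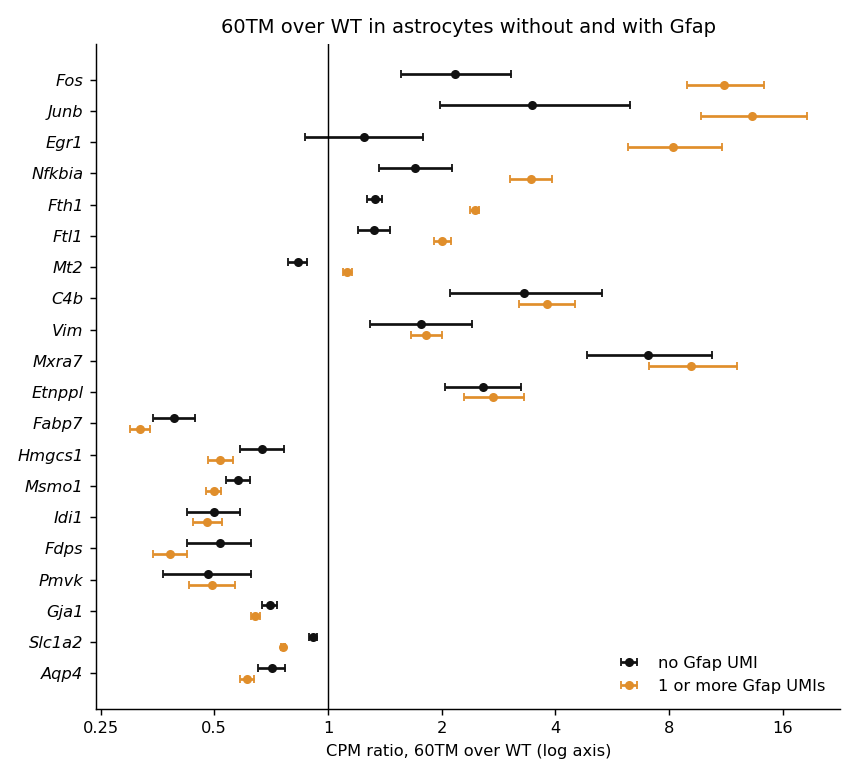
CPM ratio of 60TM over WT (x axis, log scale) for 20 genes (rows) in filtered astrocytes without Gfap (black) and with 1 or more Gfap UMIs (orange); bars are 95% counting intervals, 1 library per genotype. Fos, Junb, Egr1 and Nfkbia have higher ratios in cells with Gfap (11.2, 13.2, 8.20 and 3.44), and Idi1, Pmvk and Etnppl have overlapping intervals.

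Within each library, cells without Gfap were set over cells with it. Gfap chose these groups, so the values describe the cells chosen and carry no test. Over all cells, oligodendrocyte precursor genes led the higher side: Pdgfra was at 147 CPM without and 5.74 CPM with Gfap in 60TM, and 49.7 and 3.86 CPM in WT, with Lhfpl3, C1ql1, Olig2 and Opcml beside it. The lower side was led by genes of choroid plexus, mural cells and cilia, such as Ttr, Sostdc1, Acta2, Ecrg4, 1110017D15Rik and Meig1. In the filtered cells without Gfap, Pdgfra was at 2.34 CPM in 60TM and 0.521 CPM in WT. Pdgfra, C1ql1, Acta2 and Ttr are among the markers that the filter used, so their filtered values describe the choice in part. Filtered ratios without over with Gfap were 1.18 in 60TM and 1.17 in WT for Ttr, and 0.809 and 0.161 for Ecrg4. At 2-fold, 233 genes were higher (2.33%) and 385 lower (3.85%) in 60TM, and 111 higher (1.26%) and 746 lower (8.44%) in WT. In the filtered cells 66 were higher (0.785%) and 201 lower (2.39%) in 60TM, and 21 higher (0.331%) and 39 lower (0.616%) in WT.

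After filtering, the gene highest without Gfap was Gabbr2, a GABA-B receptor subunit, at 87.5 CPM without and 17.4 CPM with Gfap in 60TM, and 114 and 37.1 CPM in WT (ratios 5.04 and 3.08). Il33, an alarmin of astrocytes and oligodendrocytes, was at 160 and 59.3 CPM in 60TM and 157 and 73.5 CPM in WT (2.70 and 2.14). Ntrk3, the neurotrophin-3 receptor, had ratios of 3.35 in 60TM and 2.49 in WT, Igfbp2, a binder of insulin-like growth factors, 2.23 and 2.06, Il17rd, a brake on FGF signalling, 3.06 and 2.35, Spon1, a matrix protein, 2.09 and 2.90, St6galnac5, a sialyltransferase, 2.05 and 1.85, and C030005K06Rik 3.05 and 2.39. Lowest without Gfap was Slc38a1, a glutamine transporter, at 12.5 CPM without and 72.6 CPM with Gfap in 60TM and 16.7 and 82.2 CPM in WT (0.172 and 0.203). Vim followed at 72.7 and 311 CPM in 60TM and 41.2 and 171 CPM in WT (0.234 and 0.241), then Ifitm3 (0.237 and 0.220), Thbs4, a thrombospondin (0.266 and 0.257), Id3, an inhibitor of differentiation factors (0.295 and 0.366), C4b (0.265 and 0.304), 6330403K07Rik (0.310 and 0.2503) and Ppp1r1a, a phosphatase inhibitor (0.366 and 0.284). These 16 genes were on the same side in both libraries, which their rule of choice required.

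By list, genes of grey matter astrocytes were higher without Gfap in 8 of 13 cases in 60TM and 2 of 13 in WT, and lower in 0 (medians 0.65 and 0.37, beside 10.4% of 11842 and 6.45% of 10686 genes and medians of 0.03 and -0.01). Over all cells the counts were 5 of 13 in 60TM and 10 of 13 in WT, beside 14.2% and 10.9% of genes. White matter and pial genes were lower in 11 of 15 cases in each library and higher in 0 (medians -0.93 and -0.88, beside 11.9% and 7.98% of genes), and 9 and 11 of 15 over all cells (12.9% and 17.9%). Reactive genes were lower in 18 of 20 and 9 of 9, with medians of -0.95 and -0.85. List genes entered with 20 UMIs summed over both groups. Filtered cells with Gfap held more UMIs than those without, 8349269 against 1280009 in 60TM and 2992626 against 1917769 in WT. A weakly detected gene could therefore enter through its level in cells with Gfap, which favours counts on the lower side. Immediate early genes were lower without Gfap in 13 of 17 in 60TM, with a median of -0.79, and in 0 of 12 in WT, with 3 of 12 higher and a median of 0.30.

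**Figure D4:**
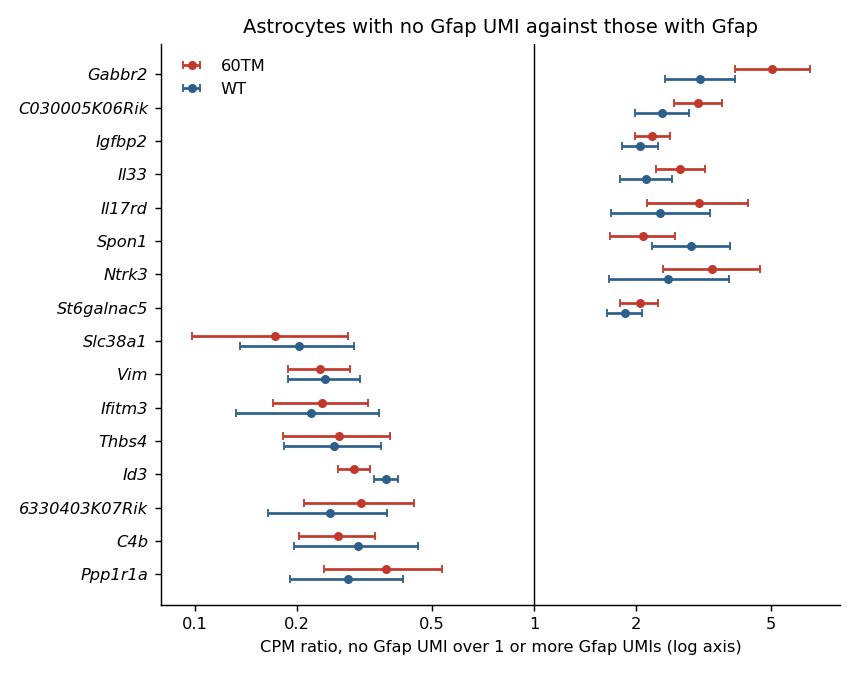
CPM ratio of filtered astrocytes without Gfap over those with 1 or more Gfap UMIs (x axis, log scale) for 16 genes (rows), 60TM in red and WT in blue; bars are 95% counting intervals. Gabbr2 is 5.04-fold and 3.08-fold higher without Gfap in 60TM and WT, and Slc38a1 has ratios of 0.172 and 0.203.

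Values were also taken by Gfap count. Vim, Id3, Gabbr2 and Il33 had been chosen for their difference between cells without and with Gfap, so their place at an end of the range in cells without Gfap follows from the choice. Filtered cells with 0, 1 to 2, 3 to 9, and 10 or more Gfap UMIs numbered 248, 349, 566 and 279 in 60TM and 360, 294, 158 and 16 in WT, with median depths of 5275, 5556, 6386.5 and 9452 UMIs in 60TM and 5353.5, 5882, 6795 and 7520.5 UMIs in WT, so depth went up with the Gfap count. Vim was at 72.7, 116, 213 and 584 CPM over these classes in 60TM and 41.2, 104, 179 and 1203 CPM in WT. Id3 was at 276, 454, 874 and 1366 CPM in 60TM and 395, 892, 1248 and 2498 CPM in WT. Gabbr2 ran the other way, at 87.5, 41.3, 12.7 and 6.66 CPM in 60TM and 114, 53.8, 13.0 and 0 CPM in WT, and Il33 likewise at 160, 99.7, 59.0 and 30.7 CPM in 60TM and 157, 99.8, 36.1 and 9.25 CPM in WT. Fos was at 70.3, 132, 270 and 413 CPM in 60TM, and at 32.3, 9.98, 47.2 and 64.8 CPM in WT, so that it climbed over all 4 classes in 60TM and not in WT. The WT value at 0 Gfap UMIs rests in large part on 1 cell, which held 53.2% of those Fos UMIs. Msmo1 was at 809, 669, 575 and 481 CPM in 60TM and 1402, 1211, 1060 and 703 CPM in WT. It was below WT in each class of 60TM cells and highest in both libraries in the cells without Gfap.

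**Figure D5:**
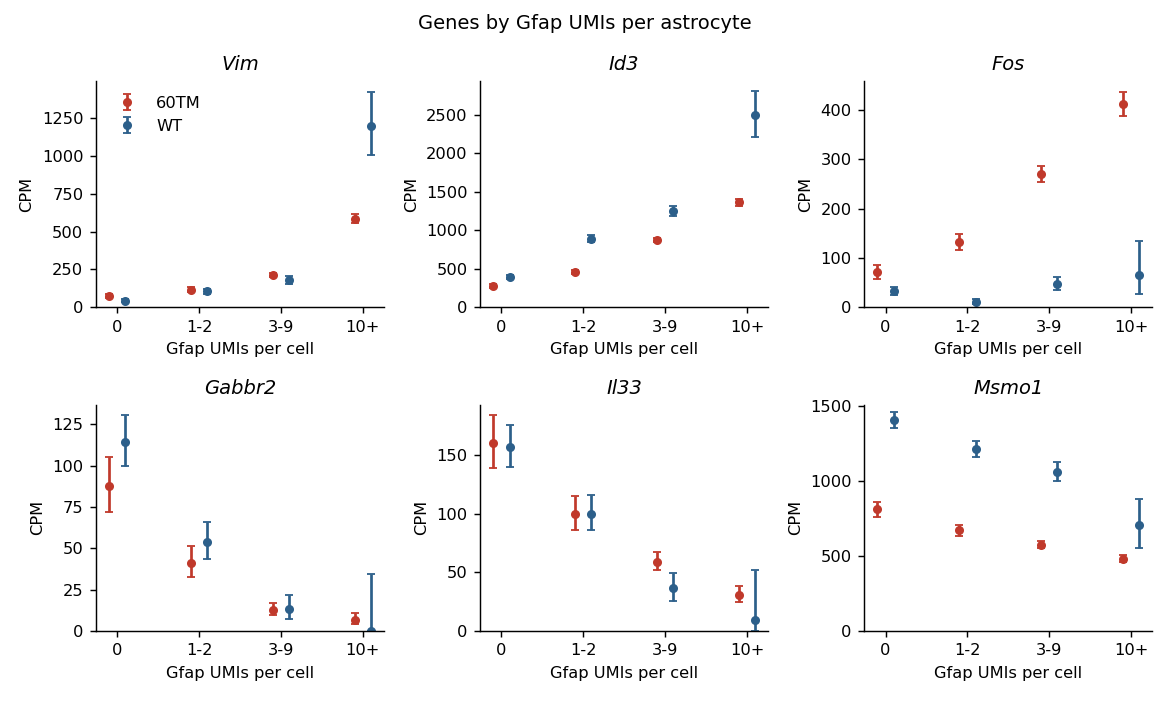
CPM (y axes) of 6 genes in filtered astrocytes by Gfap UMIs per cell (x axes), 60TM in red and WT in blue, 1 library each; bars are exact 95% Poisson intervals. Vim and Id3, chosen as lower without Gfap, are lowest and Gabbr2, Il33 and Msmo1 highest at 0 Gfap UMIs, and Msmo1 is lower in 60TM in each class.

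Variation among the cells was high for Malat1, a nuclear RNA, and Cst3, which encodes the secreted protease inhibitor cystatin C, and for genes held by few cells. At 2000 UMIs per cell, the variance over mean of Malat1 was 103 in 60TM and 99.5 in WT, and that of Cst3 45.8 and 26.0, where the median gene had 1.07 and 1.06. In WT, Hbb-bs (457) and Hba-a1 (128) ranked above Malat1, and Hba-a2 (76.0) and Ptgds (50.5) above Cst3; in 60TM, Cd74 (62.0) stood between Malat1 and Cst3. Of the 10 most variable genes in each library, 3 were shared (Malat1, Cst3 and Gm42418). In the filtered cells 6 were shared, with Apoe, the main apolipoprotein of astrocytes, Mt1, a metallothionein, and Slc1a2 added. A single cell held 98.4% of the Cd74 UMIs in 60TM and 99.6% of the Hbb-bs UMIs in WT. Among filtered cells, Cxcl10 was found in 5 of 204 60TM cells, and 1 of them held 60.7% of its UMIs. Thrsp, a lipogenic regulator, was in the 60TM list with a variance over mean of 5.17, detected in 93 of 204 cells, and Id3 in the WT list with 6.19, detected in 95 of 300 cells.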

How the data were processed

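Hippocampal cells of 2 genotypes were profiled as 1 library each with 10x Chromium 3′ v3 chemistry, per the labels' protocols. The authors deposited raw UMI counts per gene and barcode; Cell Ranger 5.0.0 and GRCm38 are named in the submitters' processing notes, while the annotation release and the treatment of intronic reads were not given in the sources used here. The matrices held 32285 genes, and no deposited annotation of cells was used. The cells and gene lists were chosen with earlier results of these data known.

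Counts were summed over the chosen cells of each library and divided by their total to give CPM. Ratios carry exact conditional binomial intervals, shares Clopper-Pearson intervals and ratios of ratios an interval from 4 Poisson counts; UMIs are taken as molecules, and all intervals are at 95% and cover counting error only. List medians use log2(CPM + 5), and a floor of 3 UMIs stands for a count of 0. With 1 library per genotype no count model was fitted and no p-value computed. Microglia-like barcodes had at least 6 of 10 microglial markers and at most 1 of the 7 astrocyte genes. Doublets were scored with Scrublet (scanpy 1.11.5, expecting 0.8% per 1000 barcodes), which marked 610 60TM and 377 WT barcodes; they were removed in an alternative only. Cells with 3 or more markers and 10 or more UMIs of another class were removed in an added alternative.

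Named genes were, leaving out genes of the choice, mitochondrial, ribosomal protein and sex-linked ones, the 12 highest and 12 lowest 60TM over WT ratios among genes with at least 100 UMIs, the 8 highest and 8 lowest of cells without over with Gfap, each ranked by the interval bound nearest to 1, in each list the 2 genes farthest from 1 in either direction, and the 10 most variable genes at 2000 UMIs; the same rule was applied to the filtered cells. Other genes named were chosen after their values were seen. One result that the rule names is not reported here. The computation was tested on simulated counts. Tools were numpy 2.4.6, scipy 1.17.1, pandas 2.3.3 and matplotlib 3.10.9.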

Additional observations from a re-analysis of the deposited data

How the results depend on the processing

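With 1 library per genotype no library could be left out and no depth or batch could be separated from genotype; 100 UMIs of a gene set a wide interval. No paired analysis was possible because each genotype had 1 library and no test was made. The ratio of the share without Gfap was 0.553 thinned to 2000 UMIs, 0.643 in cells with no UMI of Fos, Junb and Egr1, and 0.341 with the Lcn2 criterion left out, against 0.417. The count of cholesterol genes lower stayed within 9 to 14 and that of all list genes lower within 1.5 times its value. List genes higher numbered 45, and 23 thinned, 17 at 100 UMIs or more and 27 in the filtered cells. These counts are not shares, because the number of list genes tested changed too. In the filtered cells 6 interferon genes were tested against 17 over all cells, and 8 reactive genes against 16. Over all genes tested 8.1% were higher, and 5.93% in the filtered cells.

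Counts at 2-fold depended on which cells and genes entered. For 60TM over WT (58 higher, 56 lower) they were 155 and 92 with 4 of 7 astrocyte genes, 17 and 24 with 6 of 7, 9 and 11 at 2000 to 8000 UMIs, 8 and 7 thinned, 149 and 148 at 50 UMIs, 21 and 23 at 200 UMIs, and 6 and 21 in the filtered cells; the lower count was 27 with none of Tnc, Hhatl and Col11a2 and 88 with Gfap at most 1. For cells without over with Gfap in 60TM (233 higher, 385 lower) they were 485 and 247 with 4 of 7, 150 and 183 with none of Tnc, Hhatl and Col11a2, 32 and 100 at 2000 to 8000 UMIs, 34 and 71 thinned, 77 and 100 with no UMI of Fos, Junb and Egr1, 129 and 127 with Gfap at most 1, 423 and 664 at 50 UMIs, 97 and 192 at 200 UMIs, 66 and 201 filtered, and 435 and 660 with the Lcn2 criterion left out; 99 were higher with 6 of 7, and 251 lower as a mean over cells. In WT (111 higher, 746 lower) they were 55 and 387 with 6 of 7, 22 and 65 with none of Tnc, Hhatl and Col11a2, 14 and 29 at 2000 to 8000 UMIs, 9 and 46 thinned, 53 and 343 with no UMI of Fos, Junb and Egr1, 68 and 491 as a mean over cells, 55 and 456 at 200 UMIs, and 21 and 39 filtered; the higher count was 227 with 4 of 7, 186 with Gfap at most 1 and 212 at 50 UMIs.

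Reversed directions, all for genes named above and beside that of Slc6a6, were as follows. At 2000 to 8000 UMIs the 60TM over WT ratios were Ccdc153 11.2, Cfap126 2.23, Dynlrb2 5.21, Fam183b 2.97, Meig1 1.49, Ptgds 1.31, Tmem212 10.4 and Vim 2.17, and those without over with Gfap in WT were C1ql1 0.820 and Ttr 1.01. The cilia genes among them had few 60TM UMIs even over all cells, from 2 for Fam183b to 17 for Ccdc153. For the filtered ratios that follow, Ccdc153, Dynlrb2, C1ql1, Pdgfra, Acta2 and Ttr are among the markers that the filter used. In the filtered cells, 60TM over WT was 0.285 for Apod, 3.00 for Ccdc153, 2.25 for Dynlrb2 and 1.76 for Vim; without over with Gfap was 1.30 for 1110017D15Rik, 0.362 for C1ql1, 0.544 for Lhfpl3 and 1.18 for Ttr in 60TM, and 1.56 for Acta2, 0.106 for C1ql1, 0 for Lhfpl3, 0.312 for Opcml, 0.390 for Pdgfra, 1.56 for Sostdc1 and 1.17 for Ttr in WT. Vim was 1.47 with 6 of 7 astrocyte genes, 1.28 as a mean over cells, 1.27 with none of Tnc, Hhatl and Col11a2 and 1.24 thinned. Ptgds was 1.36 at 200 genes and 5% mitochondrial UMIs and 1.30 with no UMI of Fos, Junb and Egr1; Apod was 0.598 with 4 of 7 and 0.455 without doublets. Without over with Gfap, 1110017D15Rik was 1.23 in 60TM with Gfap at most 1, Opcml 0.878 in 60TM and C1ql1 0.571 in WT with 6 of 7, and Ttr 1.27 in WT at 200 genes and 5%. Ttr in 60TM over WT was 0 once the free RNA estimate was subtracted. Beyond the values for other-class cells, the cause was not tested.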

Other observations

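Some genes that differed between the genotypes in these cells differed alike in microglia-like barcodes of the same libraries. In the filtered astrocytes without Gfap, AY036118 was at 416 CPM in 60TM and 212 CPM in WT (1.963, 1.72 to 2.24), and its ratio in microglia-like barcodes was 2.31. Hnrnpa0, an RNA-binding protein, was at 175 and 89.7 CPM (1.95, 1.59 to 2.39), with 2.23 in microglia-like barcodes. Lars2, the mitochondrial leucyl-tRNA synthetase, was at 182 CPM in 60TM and 96.5 CPM in WT (1.89), with 1.99 in microglia-like barcodes, and Purb, a nucleic acid binding protein, at 229 and 133 CPM (1.72), with 1.62. Gm42418 was at 4887 CPM in 60TM and 3378 CPM in WT (1.45), with 1.39 in microglia-like barcodes. Mxra7, Etnppl and Fabp7 had intervals in microglia-like barcodes that included 1, at levels of at most 4.70 CPM. The part of a library-wide difference in these genes was not tested.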
